A study of Homo sapiens with 3 samples.

Results

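The 10 genes described here are the kinases, transcription factors and feedback inhibitors of JAK-STAT3 signalling: JAK1, JAK2, TYK2, STAT3, STAT5A, STAT5B, SOCS1, SOCS2, SOCS3 and CISH. They were chosen by symbol and not by a cut on their values, though with earlier results of these data known. All 10 of the 10 were among the 16149 genes listed in at least 1 library. Each library was made from 1 cultured strain of a human hepatocellular carcinoma (HCC) line that the labels call HCCLM3. The parent is labelled as having low metastasis ability, subclone 1 as more metastatic and specific to the lung, and subclone 2 as metastatic to both lung and celiac lymph node. According to the study's methods the parental line expresses red fluorescent protein and has a high metastatic potential, which differs from its label, and its monoclones were grown by limiting dilution of cells from lung or lymph node metastases in nude mice. The labels call the sequenced strains subclones, and the sources used here do not say which clones they were or whether each came from a single cell. All 3 strains were grown in the same medium (DMEM), with no cytokine or inhibitor named in the labels.

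JAK kinases sit on the inner side of cytokine receptors and, once a cytokine binds, phosphorylate the receptor and the STAT proteins that dock on it. The STATs then enter the nucleus and switch on target genes, among them the SOCS genes and CISH, whose proteins bind receptors or kinases and damp the same signal. In hepatocytes, STAT3 downstream of interleukin-6 drives the acute-phase response, and STAT5 carries the signal of growth hormone. Phosphorylation of STAT proteins, which is what activity means in this pathway, is not measured by RNA.

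Levels are given as RPKM, read counts corrected for gene length and library depth, so that genes of different length can be set side by side. The totals behind the RPKM, as recovered from the values, were 4488825 (parent), 4609696 (subclone 1) and 4725150 (subclone 2) reads. Reads of genes made up nearly all of these totals, so the number of all reads sequenced is not known. Intervals on levels are exact Poisson intervals and those on folds Clopper-Pearson intervals, both at 95% and both for counting error only. With 1 library per strain there was no replicate and no test, so each fold compares libraries, not conditions, and in bulk RNA fewer expressing cells and less RNA per cell cannot be told apart. The 4 epithelial markers summed to 2569, 2725 and 2803 RPKM in the parent, subclone 1 and subclone 2, nearly all of it KRT8 and KRT18, while EPCAM was at 0.257, 0.125 and 0.367 RPKM and CDH1 at 2.08, 8.97 and 12.3 RPKM. The 6 leukocyte markers summed to 76.7, 114 and 101 RPKM, nearly all of it CD68 at 75.3, 112 and 99.6 RPKM, with CD3E at 0 in each library and PTPRC at 0.0836, 0 and 0 RPKM. The 6 fibroblast markers summed to 15.7, 31.1 and 24.3 RPKM, mostly LUM at 10.1, 24.0 and 21.0 RPKM, with PDGFRB at 0 in each library, and the 4 endothelial markers summed to 4.74, 11.8 and 7.56 RPKM. Of 10 hepatocyte markers, 6 reached 1 RPKM in each library, and their summed level was 25.8, 113 and 107 RPKM. Each of these sums was higher in both subclones than in the parent, though not every gene within them was, and their part in the results was not tested.

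SOCS2, a feedback inhibitor best known for restraining growth hormone signalling through STAT5, differed most among the 10 genes. Its level was 11.5 RPKM in the parent (114 reads, 9.48 to 13.8), 1.77 RPKM in subclone 1 (18 reads, 1.05 to 2.79) and 4.21 RPKM in subclone 2 (44 reads, 3.06 to 5.66). The 3 intervals did not overlap, with the parent highest and subclone 1 lowest. Relative to the parent, SOCS2 was 6.50-fold lower in subclone 1 (3.94 to 11.4) and 2.73-fold lower in subclone 2 (1.91 to 3.96), and subclone 2 exceeded subclone 1 by 2.38-fold (1.35 to 4.38). On the log2 (RPKM + 0.1) scale these differences were -2.63, -1.43 and 1.21. Among the 11370 genes whose mean RPKM reached 1, its log2 ratio ranked 34 from the lowest in subclone 1 against the parent, 115 from the lowest in subclone 2 against the parent and 96 from the highest in subclone 2 against subclone 1.

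CISH, the founding member of the SOCS family and a target of STAT5, was also highest in the parent. Its level was 6.43 RPKM in the parent (66 reads, 4.98 to 8.19), 4.75 RPKM in subclone 1 (50 reads, 3.52 to 6.26) and 3.15 RPKM in subclone 2 (34 reads, 2.18 to 4.40). The intervals of the parent and subclone 2 did not overlap, and that of subclone 1 overlapped both. Relative to the parent, CISH was 2.04-fold lower in subclone 2 (1.33 to 3.19), and its log2 ratio of -1.01 lies just past the 2-fold limit. The fold of subclone 1 over the parent was 0.738 (0.50 to 1.08) and that of subclone 2 over subclone 1 was 0.663 (0.416 to 1.05), so that neither excluded 1. MAPKAPK3, which overlaps CISH in the RefSeq annotation, was at 32.9 RPKM in the parent, 22.2 RPKM in subclone 1 and 21.9 RPKM in subclone 2, and since the handling of strand is not given, reads from the overlap cannot be told apart.

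SOCS3, which binds the shared interleukin-6 receptor chain gp130 and JAKs and is a target of STAT3, lay the other way. Its level was 5.84 RPKM in the parent (72 reads, 4.57 to 7.36), 10.9 RPKM in subclone 1 (138 reads, 9.16 to 12.9) and 9.09 RPKM in subclone 2 (118 reads, 7.53 to 10.9). Both subclones were above the interval of the parent and overlapped each other. SOCS3 was 1.87-fold higher in subclone 1 (1.39 to 2.52) and 1.56-fold higher in subclone 2 (1.15 to 2.12) than in the parent, both short of 2-fold. Its log2 ratios of 0.89 and 0.63 ranked 700 and 1305 from the highest. Subclone 2 over subclone 1 gave 0.834 (0.647 to 1.07).

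SOCS1, an inhibitor of JAK1, JAK2 and TYK2, was barely detected. It had 1 read in the parent (0.183 RPKM), 2 in subclone 1 (0.357 RPKM) and 2 in subclone 2 (0.348 RPKM), all under the floor of 3 reads, so no fold is given. With a mean under 1 RPKM it was the member that did not pass the filter on low values, and 9 of the 10 genes remained for the counts.

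**Figure D1:**
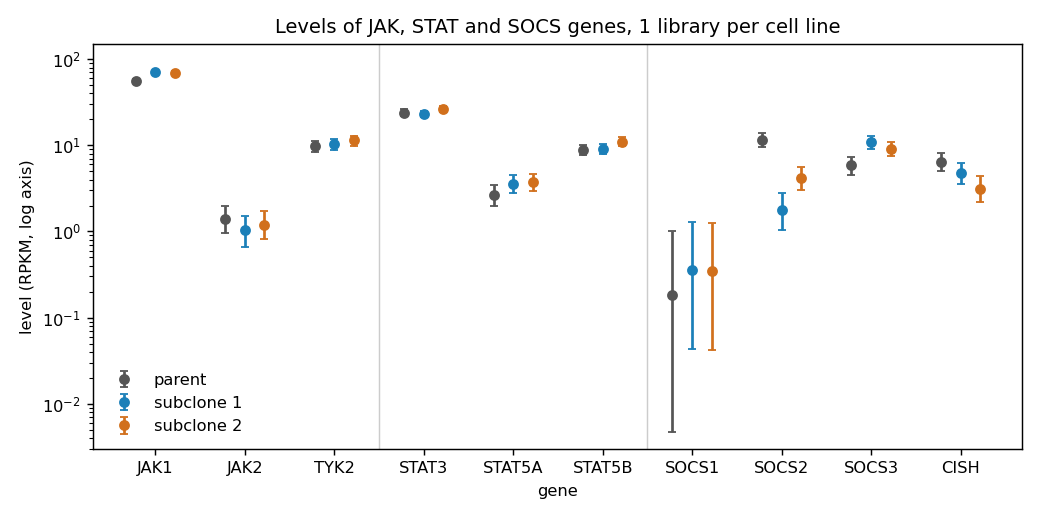
Level of each gene in RPKM (log axis) in the parent, subclone 1 and subclone 2, 1 library each, with exact 95% Poisson intervals of the reads. SOCS2 goes from 11.5 RPKM in the parent to 1.77 RPKM in subclone 1 and 4.21 RPKM in subclone 2, while the kinases and STATs lie close together across the strains.

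The summed level of SOCS1, SOCS2, SOCS3 and CISH was 24.0 RPKM in the parent, 17.8 RPKM in subclone 1 and 16.8 RPKM in subclone 2. Within that sum SOCS2 held 48.0%, 9.94% and 25.1% in the parent, subclone 1 and subclone 2. SOCS3 made up 24.4%, 61.3% and 54.1% in the same order, and CISH 26.9%, 26.7% and 18.7%. SOCS2 was thus the largest of the 4 in the parent, and SOCS3 was the largest in both subclones.

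**Figure D2:**
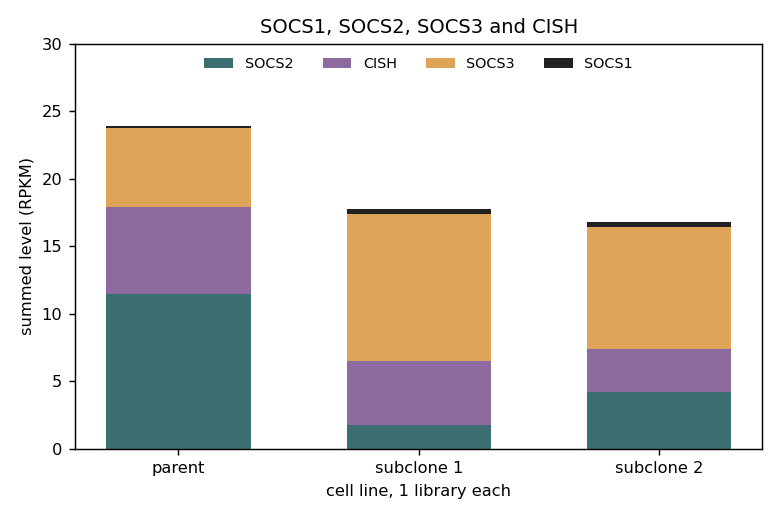
Summed level in RPKM of SOCS2, CISH, SOCS3 and SOCS1 in each strain, 1 library each, stacked by gene with no error drawn. SOCS2 is the largest band in the parent (48.0%) and SOCS3 in subclone 1 (61.3%) and subclone 2 (54.1%).

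Of the kinases, JAK1, which serves the gp130, interferon and many other receptors, was by far the highest. Its level was 55.8 RPKM in the parent (1265 reads, 52.7 to 58.9), 70.1 RPKM in subclone 1 (1632 reads, 66.7 to 73.5) and 68.8 RPKM in subclone 2 (1643 reads, 65.5 to 72.2). Both subclones were above the parent without overlap of the intervals. JAK1 was 1.26-fold higher in subclone 1 (1.17 to 1.35) and 1.23-fold higher in subclone 2 (1.15 to 1.33), and the fold between the subclones was 0.982 (0.917 to 1.05). RAVER2 overlaps JAK1 in the RefSeq annotation, so shared reads may be split between them.

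TYK2, the kinase of interferon and interleukin-12 family receptors, was at 9.77 RPKM in the parent (187 reads, 8.42 to 11.3), 10.2 RPKM in subclone 1 (201 reads, 8.87 to 11.7) and 11.4 RPKM in subclone 2 (229 reads, 9.95 to 12.9). The 3 intervals overlapped, with folds over the parent of 1.05 (0.853 to 1.28) for subclone 1 and 1.16 (0.955 to 1.42) for subclone 2. JAK2, the kinase of the growth hormone and erythropoietin receptors, was the lowest kinase. It stood at 1.39 RPKM in the parent (33 reads, 0.958 to 1.95), 1.03 RPKM in subclone 1 (25 reads, 0.664 to 1.51) and 1.20 RPKM in subclone 2 (30 reads, 0.811 to 1.71). Its folds over the parent were 0.738 (0.421 to 1.28) and 0.864 (0.509 to 1.46), and both intervals included 1. JAK1 made up 83.3%, 86.2% and 84.6% of the summed RPKM of the 3 kinases in the parent, subclone 1 and subclone 2.

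STAT3 was the highest of the 3 STATs and nearly level across the strains. It stood at 23.9 RPKM in the parent (535 reads, 22.0 to 26.1), 23.1 RPKM in subclone 1 (531 reads, 21.2 to 25.2) and 26.6 RPKM in subclone 2 (626 reads, 24.6 to 28.8). The folds over the parent, 0.966 (0.856 to 1.09) for subclone 1 and 1.11 (0.989 to 1.25) for subclone 2, both included 1. Subclone 2 was 1.15-fold higher than subclone 1 (1.02 to 1.29).

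STAT5B, the STAT5 form that carries most of the growth hormone signal in liver, was at 8.79 RPKM in the parent (204 reads, 7.62 to 10.1), 9.10 RPKM in subclone 1 (217 reads, 7.93 to 10.4) and 11.0 RPKM in subclone 2 (269 reads, 9.73 to 12.4). In subclone 2 it exceeded the parent 1.25-fold (1.04 to 1.51) and subclone 1 1.21-fold (1.01 to 1.45), while subclone 1 over the parent gave 1.04 (0.852 to 1.26). STAT5A, its close paralog and the main STAT5 of the mammary gland, was at 2.63 RPKM in the parent (51 reads, 1.96 to 3.46), 3.57 RPKM in subclone 1 (71 reads, 2.79 to 4.50) and 3.73 RPKM in subclone 2 (76 reads, 2.94 to 4.67). Its folds over the parent were 1.36 (0.933 to 1.98) and 1.42 (0.980 to 2.06), both including 1. STAT5A and STAT5B are near-identical over long stretches and overlap in the RefSeq annotation, so the division of reads between them is uncertain. The 3 STATs lie side by side on chromosome 17, and STAT3 made up 67.7%, 64.6% and 64.4% of their summed RPKM in the parent, subclone 1 and subclone 2.

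In each library JAK1 ranked first and STAT3 the second, each without overlap with the next gene. Below them the order changed. In the parent SOCS2 was the third at 11.5 RPKM, followed by TYK2, STAT5B, CISH and SOCS3, and no gene in that run differed from its neighbour beyond their intervals. In subclone 1 SOCS3 was the third at 10.9 RPKM, overlapping TYK2 and then STAT5B, and SOCS2 was the eighth, between STAT5A and JAK2, with intervals that overlapped both. In subclone 2 TYK2, STAT5B and SOCS3 followed STAT3 with overlapping intervals, and SOCS2 was the sixth, overlapping STAT5A. SOCS1 was last in each library, and its interval overlapped that of JAK2.

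Counted together, 0 of the 9 genes above the filter were higher by 2-fold or more in subclone 1 over the parent, where 4.9% of all 11370 genes were, and 1 (SOCS2) was at least 2-fold lower, where 1.82% of all genes were. In subclone 2 over the parent, 0 of 9 passed 2-fold upwards beside 5.33% of all genes, and 2 (SOCS2 and CISH) were at least 2-fold lower beside 2.16%. CISH was no longer counted with a pseudocount of 1, with levels divided by GAPDH or at a minimum mean RPKM of 5, which left 1. In subclone 2 over subclone 1, 1 (SOCS2) was at least 2-fold higher beside 1.42% of all genes, and 0 were lower beside 1.39%. The median log2 ratio of the 9 genes was 0.05, 0.22 and 0.15 in these comparisons, against 0.0043, 0.04 and 0.03 for all genes. Of all genes at least 2-fold apart, 72.9% were higher in subclone 1 relative to the parent and 50.5% in subclone 2 relative to subclone 1. With levels divided by ACTB these shares were 57.8% and 64.0%, and the latter was 62.6% with GAPDH. Both comparisons over the parent share its library, so they are not independent of each other.

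By counting error alone, the interval of the fold was above 1 for JAK1 and SOCS3 and below 1 for SOCS2 in subclone 1 over the parent, where 20.4% of 11367 genes were above and 19.4% below. In subclone 2 over the parent it was above 1 for JAK1, STAT5B and SOCS3 and below 1 for SOCS2 and CISH, beside 23.1% and 18.3% of genes. In subclone 2 over subclone 1 it was above 1 for STAT3, STAT5B and SOCS2, beside 11.9% of genes, and below 1 for 0 of the 9, beside 8.74%.

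**Figure D3:**
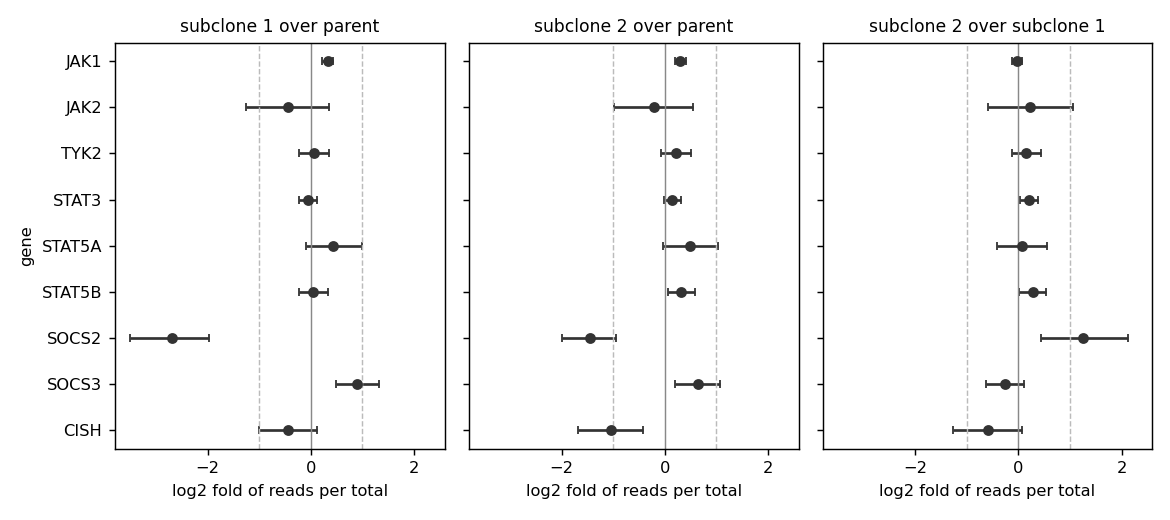
Log2 fold of the reads of each gene, scaled to the library totals, in the 3 comparisons between libraries, with Clopper-Pearson 95% intervals; dashed lines mark 2-fold and SOCS1 is not drawn. SOCS2 lies past the 2-fold line in each panel, CISH at the line in subclone 2 over the parent, and JAK1 close to 0 with the narrowest intervals.

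The sequences of the start-site regions were searched for the motif TTCNNNGAA, the consensus bound by STAT3 and STAT5, which reads the same on both strands. RefSeq promoter windows (GRCh38.p14, 250 bases before to 50 after a start site) were held for 9 of the 10 genes, 17 windows in all, with none for SOCS2. Only the CISH window matched, with 4 matches that begin at -241, -230, -129 and -112 bases from the start and do not overlap. Of all 35116 windows, 7.66% hold at least 1 match and 0.0199% hold at least 4. A match describes the letters and is not a measured binding site. The 250 bases before the start of CISH (chr3:50611775-50612024, minus strand) and of SOCS3 (chr17:78360926-78361175, minus strand) are shown 5′ to 3′ because CISH and SOCS3 differed from the parent in opposite directions in subclone 2. The capitals mark the motif, and any part of it in these directions was not tested. The SOCS3 stretch shown is from the farthest upstream of its windows, and no SOCS3 window holds a match. Sequence outside the windows was not searched.
CISH: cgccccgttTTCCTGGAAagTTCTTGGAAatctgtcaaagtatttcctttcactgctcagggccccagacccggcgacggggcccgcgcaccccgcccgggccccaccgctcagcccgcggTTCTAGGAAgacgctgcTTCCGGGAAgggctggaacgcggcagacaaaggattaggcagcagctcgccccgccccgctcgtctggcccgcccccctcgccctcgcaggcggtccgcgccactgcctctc
SOCS3: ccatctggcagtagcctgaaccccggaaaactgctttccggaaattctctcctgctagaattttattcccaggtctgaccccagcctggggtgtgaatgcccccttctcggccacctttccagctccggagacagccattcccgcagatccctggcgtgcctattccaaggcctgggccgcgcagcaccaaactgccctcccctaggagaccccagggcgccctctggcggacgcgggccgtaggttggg

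The genes beside SOCS2 on chromosome 12 did not share the size of its difference, apart from an antisense transcript. For the 5 nearest genes on either side above the filter (mean RPKM of 1 or more), the median log2 ratio was -0.17 for subclone 1 and -0.13 for subclone 2 over the parent. The lowest of these neighbours, at -2.07 and -0.64, was LOC144481, which RefSeq now names SOCS2-AS1 and which overlaps SOCS2 on the other strand. LOC144481 had 9 reads in the parent (3.49 RPKM, 1.60 to 6.63), 2 in subclone 1 (0.756 RPKM, 0.0915 to 2.73) and 6 in subclone 2 (2.21 RPKM, 0.812 to 4.82). Its folds over the parent, 0.216 (0.0228 to 1.05) and 0.633 (0.185 to 1.99), included 1, and without strand its reads cannot be told apart from those of SOCS2.

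Around CISH on chromosome 3 the neighbours were lower in the subclones too. The median log2 ratio of the 10 nearest genes was -0.47 in subclone 1 and -0.39 in subclone 2 over the parent, against -0.43 and -1.01 for CISH itself. In subclone 1 CISH therefore lay within the range of its neighbours (-0.84 to 0.13), and in subclone 2 it lay below their range (-0.63 to 0.36). The neighbours of JAK1 had medians of -0.08 and -0.03, and those of SOCS3 had medians of 0.07 and 0.28.

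**Figure D4:**
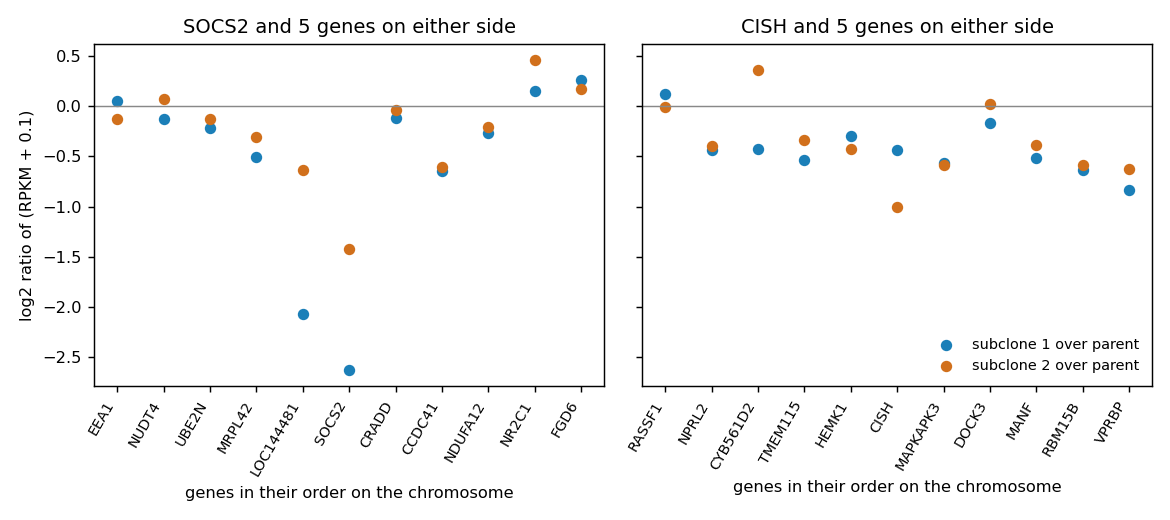
Log2 ratio of (RPKM + 0.1) over the parent for SOCS2, for CISH and for the 5 genes on either side of each above the filter (mean RPKM of 1 or more), in chromosome order and not to distance. SOCS2 (-2.63 and -1.43) stands apart from its neighbours except LOC144481 in subclone 1 (-2.07), while most genes around CISH lie below 0.

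The genes with a pattern nearest to that of SOCS2, by distance between the pairs of log2 ratios over the parent, were CSRP2, MAOB and CLDN11. MAOB, a mitochondrial enzyme that breaks down amines, was at 28.1 RPKM in the parent, 3.90 RPKM in subclone 1 and 10.1 RPKM in subclone 2 (329, 47 and 125 reads), at a distance of 0.183. CSRP2, a LIM-domain protein, was at 7.17, 0.963 and 2.82 RPKM on 29, 4 and 12 reads, at a distance of 0.177. CLDN11, a tight-junction claudin, was at 3.07, 0.550 and 1.15 RPKM on 38, 7 and 15 reads, at a distance of 0.360. Only 7 genes lay within 0.5 of SOCS2 and 26 within 1. The likeness rests on 3 libraries.

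Upstream of the kinases, the ligands of the gp130 family were mostly near 0, with 2 of 11 above the filter. LIF, a gp130 cytokine, was at 4.64 RPKM in the parent, 6.78 RPKM in subclone 1 and 6.45 RPKM in subclone 2, 1.46-fold (1.10 to 1.96) and 1.39-fold (1.04 to 1.86) higher than the parent. Of 8 receptors of the family 5 passed the filter and 0 were 2-fold apart in either direction. Of all genes, 4.9% were higher and 1.82% lower in subclone 1 over the parent. The shares were 5.33% and 2.16% in subclone 2 over the parent, and 1.42% and 1.39% in subclone 2 over subclone 1. IL6ST, which encodes gp130, was at 37.9 RPKM in the parent, 28.7 RPKM in subclone 1 and 28.3 RPKM in subclone 2, with folds of 0.757 (0.702 to 0.817) and 0.746 (0.691 to 0.804). It was lower in both subclones, whose levels differed by less than counting error. IL6R, the interleukin-6 binding chain, was at 11.6, 10.7 and 12.2 RPKM, with folds over the parent of 0.923 (0.784 to 1.09) and 1.05 (0.902 to 1.23). The chains for LIF and oncostatin M, LIFR and OSMR, were at 3.30, 2.47 and 2.85 RPKM and at 19.8, 23.6 and 22.3 RPKM. IL6 and STAT4 were not analysed here.

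Among 20 other receptor chains that signal through JAKs, 13 passed the filter, with median log2 ratios of 0.53 and 0.58 over the parent in subclone 1 and subclone 2, beside 0.0043 and 0.04 for all genes. In each subclone 3 of the 13 were at least 2-fold higher, beside 4.9% and 5.33% of all genes, and 0 were lower, beside 1.82% and 2.16%. IL7R of the same list, with 27 reads in the parent and 0 in both subclones, had a mean under 1 RPKM and is not in these counts. EPOR, the erythropoietin receptor, was at 1.23 RPKM in the parent, 3.44 RPKM in subclone 1 and 2.66 RPKM in subclone 2, 2.79-fold (1.52 to 5.41) and 2.15-fold (1.14 to 4.25) higher. IL22RA1, the interleukin-22 receptor that acts through STAT3 in hepatocytes, was at 1.04, 4.36 and 4.18 RPKM, 4.17-fold (2.30 to 8.09) and 4.0-fold (2.21 to 7.76) higher. IL20RB, a chain of the interleukin-20 receptors, was at 2.98, 14.6 and 6.04 RPKM, 4.90-fold higher in subclone 1 (3.27 to 7.58), 2.03-fold higher in subclone 2 (1.29 to 3.27), where its log2 ratio with the pseudocount fell just short of the limit, and 2.41-fold lower in subclone 2 than in subclone 1 (1.78 to 3.30). IL2RG, the common gamma chain, was at 2.57, 3.89 and 7.60 RPKM, so that subclone 2 exceeded the parent 2.96-fold (1.71 to 5.34). GHR, the growth hormone receptor upstream of JAK2 and STAT5, had only 2, 5 and 3 reads in the parent, subclone 1 and subclone 2.

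Of the other JAKs and STATs, 3 were measured above the filter and 0 were 2-fold apart, as were 0 of 4 other SOCS genes and 0 of 16 other inhibitors. The shares of all genes at least 2-fold higher and lower were 4.9% and 1.82% in subclone 1 over the parent. They were 5.33% and 2.16% in subclone 2 over the parent, and 1.42% and 1.39% in subclone 2 over subclone 1. SOCS7 was at 2.54 RPKM in the parent, 3.40 RPKM in subclone 1 and 2.97 RPKM in subclone 2, 1.34-fold (1.01 to 1.77) higher in subclone 1 than in the parent. SOCS5 was at 9.93, 11.4 and 6.62 RPKM in the same order. Its fold in subclone 2 was 0.666 (0.533 to 0.831) over the parent and 0.580 (0.468 to 0.718) over subclone 1. For SOCS4 and SOCS6 the intervals of all folds included 1. PTPN2, a phosphatase that acts on JAK1 and STAT3, was at 19.0 RPKM in the parent, 14.5 RPKM in subclone 1 and 11.5 RPKM in subclone 2. Its folds over the parent were 0.766 (0.642 to 0.914) and 0.604 (0.50 to 0.729), lower in both subclones and short of 2-fold.

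Downstream, 27 of 33 STAT3 target genes passed the filter. In subclone 1 over the parent 7 of them were at least 2-fold higher and 0 lower, beside 4.9% and 1.82% of all genes, and their median log2 ratio was 0.60 beside 0.0043. Subclone 2 over the parent had 6 higher and 1 lower beside 5.33% and 2.16% of all genes, with a median of 0.36 beside 0.04. In subclone 2 over subclone 1, 0 were higher and 3 lower beside 1.42% and 1.39%, with a median of -0.03 beside 0.03. The filter averages the parent with both subclones, so a gene read only in the subclones passes more easily than one read only in the parent. SAA1 and FGG passed through the subclones, with 0 and 0.126 RPKM in the parent. Both genes are among those counted as higher in each subclone. The same filter was used for the members, the other lists and all genes, but the size of this lean in each was not measured.

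The fibrinogen chains are acute-phase proteins of the liver. FGB was at 1.66 RPKM in the parent, 14.5 RPKM in subclone 1 and 5.60 RPKM in subclone 2, 8.73-fold (5.85 to 13.5) and 3.38-fold (2.18 to 5.39) higher than the parent and 2.58-fold lower in subclone 2 than in subclone 1 (2.03 to 3.31). FGA was at 1.16, 6.53 and 4.63 RPKM, 5.64-fold (3.44 to 9.72) and 4.0-fold (2.40 to 6.99) higher. FGG rested on 1 read in the parent against 39 in subclone 1 and 30 in subclone 2, with folds of 38.0 (6.43 to 1538) and 28.5 (4.74 to 1163). HP, LBP and HPX, which are also in the STAT3 target list, had 0 or 1 reads in each library.

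SAA1, serum amyloid A, had 0 reads in the parent and 16 in each subclone, at least 5.19-fold higher in subclone 1 and at least 5.07-fold higher in subclone 2 against a floor of 3 reads per library. With the counting error of the 16 reads included, the lower limits of these folds were 3.76 and 3.66, and near-identical copies of it may share these reads. SERPINA3, an acute-phase protease inhibitor, was at 1.09, 3.86 and 1.56 RPKM, 3.53-fold higher in subclone 1 (1.57 to 8.94) and 2.48-fold lower in subclone 2 than in subclone 1 (1.23 to 5.33). FGL1, a hepatocyte-secreted fibrinogen-like protein, was at 5.50, 8.39 and 16.1 RPKM, 2.93-fold higher in subclone 2 (2.0 to 4.36). HAMP, which encodes hepcidin, had 3, 6 and 1 reads, so its place beyond 2-fold in subclone 2 over the parent (fold 0.317, 0.00603 to 3.94) and over subclone 1 (fold 0.163, 0.00353 to 1.34) lay within counting error.

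CEBPD, a transcription factor of the acute-phase response, was at 12.1 RPKM in the parent, 27.2 RPKM in subclone 1 and 32.0 RPKM in subclone 2, 2.24-fold (1.68 to 3.02) and 2.64-fold (2.0 to 3.53) higher. ICAM1, an adhesion molecule, was at 39.0, 84.5 and 75.8 RPKM, 2.16-fold (1.96 to 2.39) and 1.94-fold (1.75 to 2.15) higher. The STAT3 targets did not all lie the same way. Of the 27 above the filter, 22 had a log2 ratio above 0 and 5 below in subclone 1 over the parent. In subclone 2 over the parent these were 20 and 7. MYC, for 1, was lower in both subclones, at 88.3, 54.7 and 54.4 RPKM. The hepatocyte markers were uneven in the same libraries. ALB, the highest of them in both subclones, was at 2.46 RPKM in the parent, 49.5 RPKM in subclone 1 and 68.8 RPKM in subclone 2. TF was at 5.71, 30.3 and 5.88 RPKM. APOB was at 0.300, 1.23 and 4.17 RPKM, AFP at 2.41, 4.16 and 4.27 RPKM and APOA1 at 0.248, 0.726 and 0.472 RPKM. HNF4A was at 11.7, 11.9 and 16.01 RPKM and AHSG at 1.26, 0.953 and 0.929 RPKM. SERPINA1 was at 0.0631, 0.246 and 0.0599 RPKM and TTR at 0, 0 and 0.451 RPKM. FGB stands in both lists. The part of these markers in the levels of the acute-phase genes was not tested.

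Of 11 STAT5 target genes 6 passed the filter, with median log2 ratios of 0.15 and 0.23 over the parent. IGFBP3, which carries insulin-like growth factors in blood, was at 31.9 RPKM in the parent, 94.8 RPKM in subclone 1 and 73.6 RPKM in subclone 2, 2.97-fold (2.64 to 3.35) and 2.31-fold (2.04 to 2.61) higher. CDKN1A, the cell cycle inhibitor p21, was at 20.01, 39.2 and 55.8 RPKM, 1.96-fold (1.65 to 2.32) and 2.79-fold (2.38 to 3.28) higher. IGF1, the main liver product of growth hormone signalling, was not above the filter, with 0, 1 and 1 reads. Over all 72 genes of these lists above the filter, 11 were at least 2-fold higher and 0 lower in subclone 1 over the parent. Subclone 2 over the parent had 11 higher and 1 lower, and subclone 2 over subclone 1 had 0 higher and 4 lower. The shares of all genes higher and lower were 4.9% and 1.82%, 5.33% and 2.16%, and 1.42% and 1.39% in the same order.

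**Figure D5:**
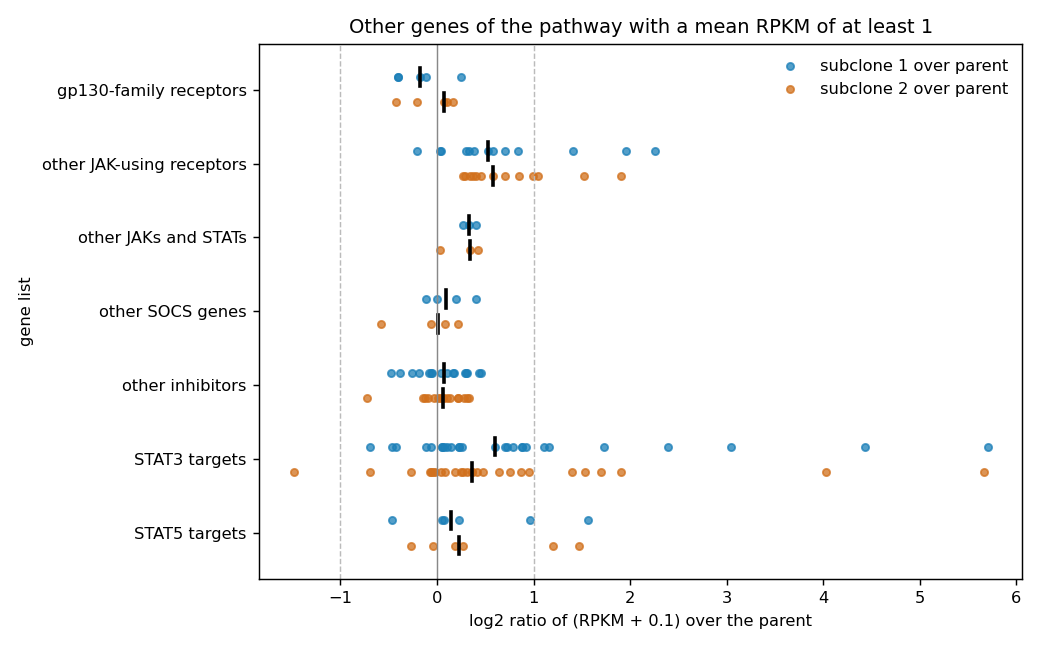
Log2 ratio of (RPKM + 0.1) over the parent for each gene of 7 pathway lists above the filter (mean RPKM of 1 or more), with black bars at the median of each list; a gene in 2 lists is drawn in both. STAT3 targets have medians of 0.60 in subclone 1 and 0.36 in subclone 2 and reach furthest to the right, while inhibitors and other SOCS genes stay within the dashed 2-fold lines.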

How the data were processed

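Messenger RNA of 3 strains of 1 HCC line was sequenced from Illumina TruSeq libraries, 1 library per strain, and each strain was grouped by its label. The authors deposited RPKM values for the genes with a value above 0, and absent genes were taken as 0. The submitters' processing notes name the build hg19. The aligner, the counter, the annotation, the use of strand and the treatment of shared reads are not given in the sources used here.

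The members and the gene lists were chosen with earlier results of these data known. Log2 ratios were taken between libraries after adding a pseudocount of 0.1 to the RPKM, a scale that understates the change of low genes, and counts used the 11370 of 16149 genes whose RPKM averaged 1 or more. Groups of 1 library allow no test, and no p-value was computed. All members were named, together with the pathway genes above the filter that were at least 2-fold apart in a comparison, IL6, IL6R, IL6ST, LIF, LIFR, OSMR, GHR, PTPN2 and SOCS7, and the 3 genes nearest to the member of widest span. IFNLR1 was matched under its older symbol IL28RA by gene number. Beyond this rule, SOCS2-AS1, MAPKAPK3 and RAVER2 were named for their position and the cell type markers for the check of the line. IL7R, IGF1, STAT4, MYC, HP, LBP, HPX, SOCS4, SOCS5 and SOCS6 were named after the values were seen.

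Reads were recovered from the RPKM. The rows at the end of each table hold 1 read, which gives the library total, and 99.9% of the rows stand in order of reads, which fixes the multiple. Whole reads (within 0.001) were found for 11367 of the 11370 genes, and the resolved genes held 99.6%, 99.5% and 99.7% of the totals of the parent, subclone 1 and subclone 2. The lengths so implied for all 10 members lay within 10% of a GENCODE transcript of the same gene. The transcript nearest in length was taken for each gene, so this is a loose check. The recovery and the ratios were tested on simulated data. Start-site sequences and gene order came from RefSeq tables of GRCh38.p14, so no hg19 coordinate is printed. Alternatives were pseudocounts of 0.01 and 1, 5 other scalings, no filter, a minimum mean RPKM of 5, and a limit of 1.5-fold. Python 3.11.15, numpy 2.4.6, pandas 2.3.3, scipy 1.17.1 and matplotlib 3.10.9 were used.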

Additional observations from a re-analysis of the deposited data

Results flagged for a closer look

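STAT3 lay on opposite sides of the parent in the subclones, with a log2 ratio of -0.05 in subclone 1 and 0.15 in subclone 2. The difference was not tested, since each strain has 1 library. Neither fold over the parent excluded 1 by counting error, while subclone 2 over subclone 1 was 1.15 (1.02 to 1.29).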

How the results depend on the processing

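No member past the 2-fold limit turned direction under any of the settings tried. The 27 recomputed medians of the members stayed between the median of the members' lower and that of their upper counting limits. That range is not an interval of the median itself. Of 210 recomputed values of single members 207 stayed within their counting intervals. The others were JAK1 at 0.20 on the log2 scale in subclone 1 over the parent with ACTB, and at 0.10 with ACTB and 0.09 with GAPDH in subclone 2 over subclone 1. The sign near 0 turned for JAK1 in subclone 2 over subclone 1 (ACTB, GAPDH), for TYK2 in subclone 1 over the parent (ACTB), for STAT5B in subclone 1 over the parent (ACTB, GAPDH) and for SOCS1 in subclone 2 over subclone 1 (ACTB, GAPDH). ACTB moved the median of all genes by -0.13 in subclone 1 over the parent and by 0.12 in subclone 2 over subclone 1, where GAPDH also moved it by 0.12. At 1.5-fold, 1 member (SOCS3) was higher in each subclone over the parent. Members lower in subclone 2 over the parent numbered 1 with a pseudocount of 1, with GAPDH and at a minimum mean RPKM of 5, CISH being the one lost, and members higher in subclone 2 over subclone 1 numbered 0 with a pseudocount of 1, where SOCS2 was at 0.91.

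Counts of all genes higher and lower in subclone 1 over the parent, subclone 2 over the parent and subclone 2 over subclone 1 were 347 and 117, 380 and 150, and 80 and 77 with a pseudocount of 1. They were 1523 and 884, 1553 and 941, and 842 and 902 with no filter, 233 and 71, 253 and 93, and 43 and 46 at a minimum mean RPKM of 5, and 1317 and 848, 1444 and 830, and 540 and 467 at 1.5-fold. With ACTB 328 genes were lower in subclone 1 over the parent. No paired analysis was possible because each strain has 1 library, nor could a replicate be left out. Depth limits JAK2, SOCS1, HAMP and LOC144481, whose intervals on the fold all include 1.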

Other observations

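IL7R, the interleukin-7 receptor chain that signals through JAK1 and JAK3, had 27 reads in the parent (2.46 RPKM) and 0 in both subclones. A floor of 3 reads was used in place of 0. It was at least 9.24-fold lower in subclone 1 and at least 9.47-fold lower in subclone 2 at that floor, and with the counting error of the 27 reads included the lower limits were 7.01 and 7.19. Its mean stayed under 1 RPKM, so it is not in the counts above, and it was picked after its values were seen.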
